A study of Mus musculus with 4 samples.

Results

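The colony-stimulating factors (CSFs) and their receptors were examined in mouse skin as a set of 9 genes out of the 39179 genes counted. The set was given by gene symbol and holds 4 ligands (Csf1, Il34, Csf2, Csf3) and 5 receptor chains (Csf1r, Csf2ra, Csf2rb, Csf2rb2, Csf3r), and all 9 were matched to an Ensembl identifier in the files. RNA sequencing libraries came from 2 samples of wild-type (WT) skin and 2 samples of lesional skin of Itch knockout (Itch KO) mice, all on the C57BL/6 background and all carrying the phenotype label inflammation, the WT samples included. Itch encodes a Nedd4-type E3 ligase for ubiquitin, and its loss in mice is known for skin inflammation and scratching. The age and sex of the mice, the Itch allele and whether each library is its own animal are not given in the labels, so a p-value reflects only the spread of these libraries, which may be technical.

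CSFs are secreted growth factors of myeloid cells. CSF1 (M-CSF) and interleukin-34 bind the same receptor tyrosine kinase, the product of Csf1r, on monocytes, macrophages and Langerhans cells, and in skin interleukin-34 is known as a keratinocyte product on which Langerhans cells depend. GM-CSF, from Csf2, binds a ligand-specific alpha chain (Csf2ra) that signals through a beta chain (Csf2rb) shared with the receptors for interleukin-3 and interleukin-5, and mice carry a second beta chain, Csf2rb2, which serves interleukin-3. G-CSF, from Csf3, acts on neutrophils and their precursors through Csf3r.

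Reads assigned to genes numbered 15144957 to 16008351 per library. Itch itself stood at 96.7 and 103 CPM (reads scaled to library size) in WT replicates 1 and 2 and at 11.7 CPM in both knockout libraries, on the side of each label. Keratinocyte markers were abundant in every library, with a summed level of 12560 to 15335 CPM over 8 genes, as skin should show. The WT libraries stood apart from each other: the skeletal muscle markers summed to 12348 CPM in WT replicate 1 and 2053 CPM in WT replicate 2, against 783 to 971 CPM in the knockouts, and the hair shaft markers to 5.0 CPM in WT replicate 1 and 772 to 1339 CPM in the other 3 libraries. Xist, the RNA of X inactivation, measured 1055 and 631 CPM in WT against 0.947 and 0.892 CPM in the knockouts, and the Y-linked Ddx3y measured 0.0667 and 0.126 against 69.1 and 48.0 CPM. Both WT libraries thus had a female pattern and both knockouts a male one, so genotype and sex cannot be told apart in any comparison below.

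The receptor genes were all higher in the knockouts, the ligand Csf3 was near absent in WT and abundant in the knockouts, and Il34 was lower. Of the 9 genes, 8 had enough reads to be tested, and Csf2 did not. None of the 8 passed an adjusted p of 0.05 in edgeR's quasi-likelihood test (Benjamini-Hochberg over 16651 genes, where 0.00601% of genes passed), and 4 receptor genes passed a threshold of 0.10, chosen after seeing the data, which 3.86% of genes passed as higher. At an unadjusted p under 0.05, 6 of the 8 were higher and 1 was lower, against 12.0% and 10.9% of tested genes. The 1 lower gene, Il34, was thus near the background share. DESeq2, at an adjusted p under 0.05, also called 6 higher and 1 lower, where it called 7.83% and 6.16% of tested genes. At that threshold limma-voom called 0 of them. It called 7 at an unadjusted p under 0.05, where 12.5% of tested genes were higher and 8.98% lower. For 7 of the 8 genes the lowest knockout exceeded the highest WT value, and for 1 the reverse held, against 31.2% and 30.0% of tested genes. Csf3 passed the filter on low counts through the knockout libraries alone and therefore had to differ. It is included in the counts above of edgeR at an unadjusted p, of DESeq2 and of limma-voom at an unadjusted p. Of the other 7 tested genes, 5 passed an unadjusted p of 0.05 upward and 1 downward. Of the 16116 tested genes that did not pass the filter through 1 group alone, 1759 passed upward and 1663 downward. The median log2 fold change of the 8 was 1.69, against 0.01 over all tested genes.

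**Figure D1:**
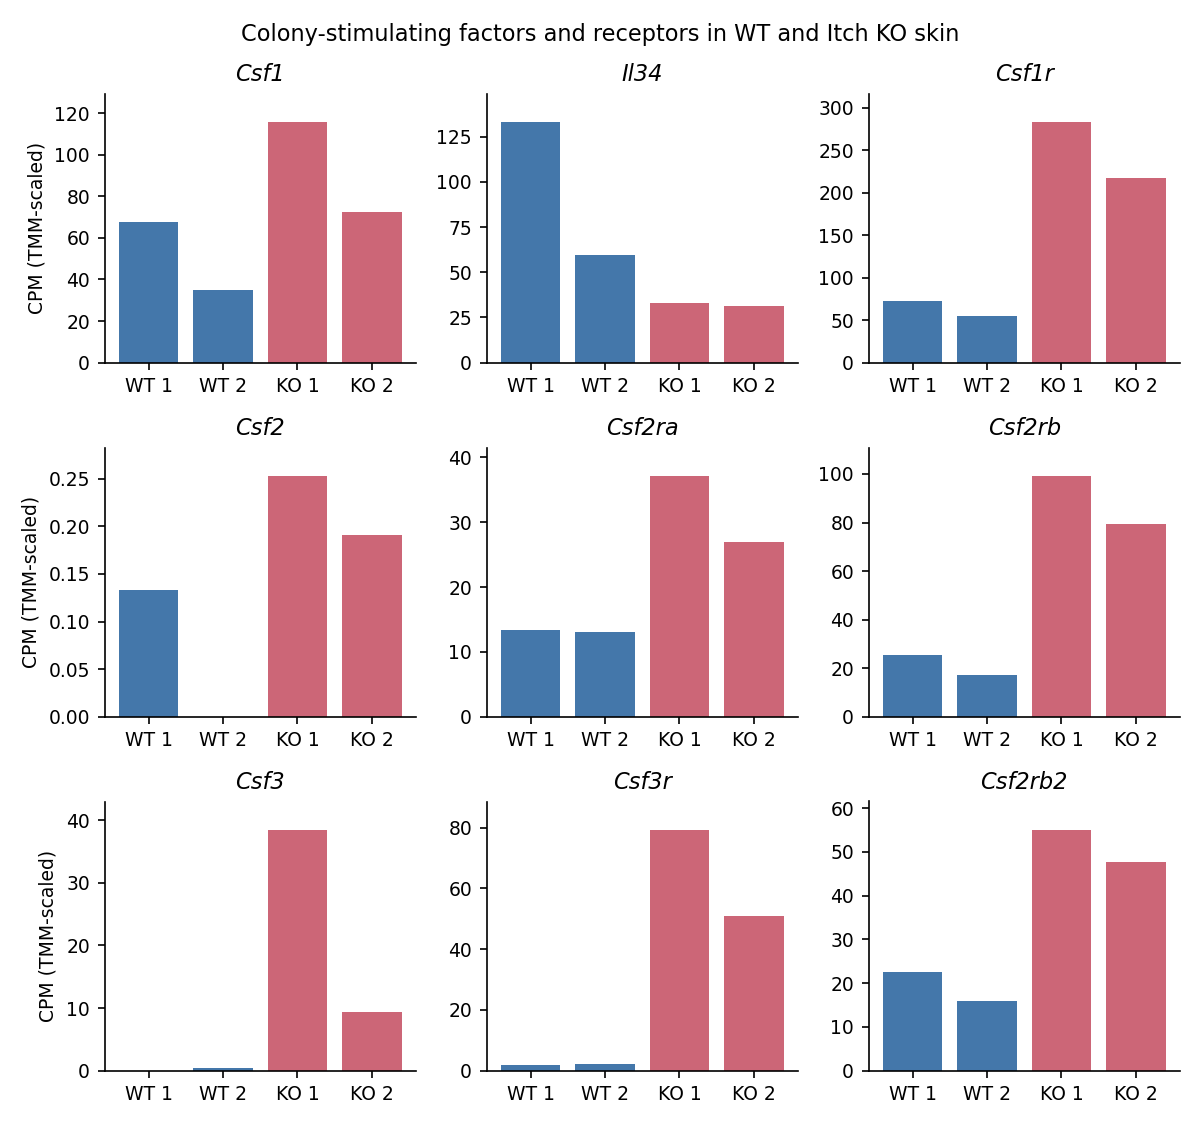
Levels of the 9 genes in each library, as bars of CPM on linear axes that start at 0 and differ between panels, with WT in blue and Itch KO (KO) in red. Il34 is highest in WT replicate 1 at 133 CPM and lowest in the knockouts, Csf3 and Csf3r are close to 0 in WT, and the Csf2 bars stand for 0 to 4 counts.

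Among the ligands of the CSF1 receptor, Il34 was lower in the knockouts and Csf1 was not separated from WT by its test. Il34 (ENSMUSG00000031750, GRCm38 chromosome 8, 110741829 to 110805924, minus strand) was covered by 1995 and 946 counted reads in the WT libraries, against 527 and 495 in the knockouts. These were 133 and 59.7 CPM against 33.3 and 31.5 CPM, so the knockouts were close together, below both WT libraries, and WT replicate 1 was above WT replicate 2. The log2 fold change was -1.57 (SE 0.42), a level 2.97-fold higher in WT, with unadjusted p = 0.0177 and adjusted p = 0.155 in edgeR and adjusted p = 0.00710 in DESeq2. Its size rested on the WT libraries, with a log2 fold change of -0.89 without WT replicate 1 and -2.03 without WT replicate 2, and its unadjusted p was 0.0683 and 0.0796 without knockout replicate 1 or 2. The keratinocyte markers, genes of the cells known to make interleukin-34, summed to 14847 and 15335 CPM in WT and 12560 and 14656 CPM in the knockouts. Il34 amounted to 8.96 and 3.89 CPM per 1000 CPM of those markers in WT and to 2.65 and 2.15 in the knockouts. In bulk skin, fewer cells of a type and less RNA per cell cannot be told apart. Il34 shares 22 and 75 exon bases with the antisense genes Gm15894 and Gm15895 on the opposite strand. The strand setting of the counting is not given in the sources used here, and these antisense genes had 4 to 13 counts per library.

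Csf1 (ENSMUSG00000014599, chromosome 3, 107741048 to 107760469, minus strand), the main growth factor of tissue macrophages, was covered by 1012 and 556 counted reads in the WT libraries, against 1829 and 1139 in the knockouts. At 67.5 and 35.1 CPM against 115.5 and 72.6 CPM the groups did not overlap, but knockout replicate 2 lay only a little above WT replicate 1. The log2 fold change of 0.88 (SE 0.42, 1.83-fold) gave unadjusted p = 0.0979 and adjusted p = 0.289 in edgeR, and the adjusted p of DESeq2 was 0.213. Leaving out WT replicate 1 made it 1.42 with unadjusted p = 0.0146, and without WT replicate 2 or knockout replicate 1 it was 0.48 and 0.50. The fibroblast markers, genes of cells that are among the known sources of CSF1, summed to 2195 and 3393 CPM in WT and 14032 and 12670 CPM in the knockouts, and Csf1 amounted to 30.7 and 10.3 CPM per 1000 CPM of those markers in WT and to 8.23 and 5.73 in the knockouts. The log2 fold changes within the fibroblast list ran from 0.60 for Dpt to 2.93 for Col1a1, so the ratio to its sum depends on the genes listed. The part of either cell type in the Csf1 and Il34 levels was not tested.

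Per length of exon, the order of these ligands differed between the groups. In CPM per kilobase (kb) of exon, Il34 stood at 67.9 and 30.5 in WT against 12.8 and 6.65 for Csf1, so Il34 was 5.31 and 4.59 times the level of Csf1. In the knockouts Il34 stood at 17.0 and 16.1 and Csf1 at 21.9 and 13.7, and the ratio of Il34 to Csf1 was 0.777 and 1.17. All 4 ratios are free of library scaling, and those of the groups did not overlap. The exact two-sided permutation test over libraries gave p = 0.333, the smallest that 2 against 2 allows. With the length of the main coding transcript in place of the union of exons, a choice added after seeing the data, the ratios were 4.82 and 4.16 in WT and 0.704 and 1.06 in the knockouts.

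**Figure D2:**
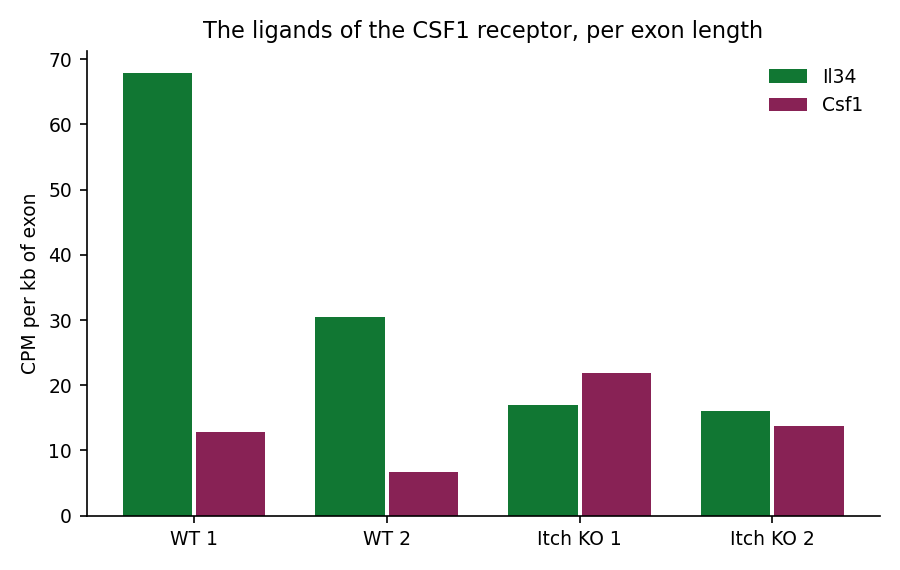
Il34 (green) and Csf1 (magenta) in each library, in CPM per kb of exon on a linear axis that starts at 0. Il34 is far above Csf1 in both WT libraries, and the bars are of similar height in both knockout libraries, with Csf1 above Il34 in replicate 1 and below it in replicate 2.

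The ligands with the most restricted expression, Csf2 and Csf3, lie on the same chromosome and are both known for AU-rich elements in their 3′ untranslated regions, sites of rapid mRNA decay. The 30-base stretches with the most ATTTA pentamers in the GENCODE transcripts are shown because they set these ligands apart from the other 7 genes, with the pentamers in capitals.
Csf2: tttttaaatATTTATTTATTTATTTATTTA
Csf3: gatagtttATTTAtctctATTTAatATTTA
Csf2 held 9 pentamers in a 3′ untranslated region of 317 bases, which is 28.4 per kb, and Csf3 held 6 in 669 bases, which is 8.97 per kb, against a median of 1.16 per kb over 14428 tested coding genes. The other ligands, Csf1 and Il34, held 1.89 and 2.28 per kb. Csf1r held 1.8 per kb, and the other 4 receptor chains held none. The longer motif TTATTTATT occurred 4 times in Csf2 and in none of the other 8 genes, and 6.93% of tested coding genes held it. A match is a description of the letters and does not show decay in these samples.

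Csf3 (ENSMUSG00000038067, chromosome 11, 98701263 to 98703629, plus strand), which encodes the neutrophil growth factor G-CSF, was covered by 0 and 6 counted reads in the WT libraries, against 608 and 147 in the knockouts. As levels these were 0 and 0.379 CPM against 38.4 and 9.37 CPM, so both knockouts were far above both WT libraries, and knockout replicate 1 was well above replicate 2. The fitted log2 fold change was 6.89 (SE 1.38), with unadjusted p = 0.00646 and adjusted p = 0.111 in edgeR and adjusted p = 6.74e-08 in DESeq2. From the summed counts of 755 against 6, the ratio of knockout to WT was 123 with an exact conditional binomial 95% interval of 56.3 to 336, which covers counting error only. Without WT replicate 1 the log2 fold change was 5.95 with unadjusted p = 0.0852. Without WT replicate 2 the only WT value left was 0 counts, which allows up to 0.195 CPM, so that the fitted value has no meaning as a size, and its unadjusted p was 0.0602. No overlapping gene is annotated at Csf3, and none of its 50-base words occur in transcripts of other genes.

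Csf2 (ENSMUSG00000018916, chromosome 11, 54247271 to 54249667, minus strand), which encodes GM-CSF, was covered by 2 and 0 counted reads in the WT libraries, against 4 and 3 in the knockouts. These are 0.133 and 0 CPM against 0.253 and 0.191 CPM, close to the limit that a count of 0 allows, 0.187 to 0.198 CPM per library at 3 counts. The ratio of knockout to WT over the summed counts was 3.42, with an exact conditional binomial 95% interval of 0.652 to 33.8. A difference in Csf2 was not detectable at this depth. Csf2 shares 96 exon bases with the antisense gene Gm12223, which had 0 counts in every library.

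All 5 receptor chains were higher in the knockouts. The largest difference among them was in Csf3r (ENSMUSG00000028859, chromosome 4, 126024550 to 126044440, plus strand), which was covered by 26 and 33 counted reads in the WT libraries, against 1253 and 800 in the knockouts. At 1.73 and 2.08 CPM against 79.1 and 51.0 CPM, the lowest knockout was far above the highest WT library. The log2 fold change of 5.08 (SE 0.34, 33.9-fold) had adjusted p = 0.0548 in edgeR, just above the threshold, and 5.57e-31 in DESeq2, and ranged from 4.72 to 5.37 with each library left out. The neutrophil markers had the same direction: 4 of 10 tested (Ly6g, Mmp8, Camp and Stfa2l1) passed the low-count filter through the knockouts alone and so had to be higher, and 4 of the other 6 were higher at an unadjusted p under 0.05. Of the 16116 tested genes that did not pass the filter through 1 group alone, 1759 were higher and 1663 lower at that threshold. The list summed to 38.1 and 87.7 CPM in WT and 2215 and 970 CPM in the knockouts over 14 genes. On this list, the granule genes Ltf, Ngp, Mpo and Elane had too few reads to be tested. Mmp9 stood at 27.1 and 22.3 CPM in WT against 144 and 111 CPM, and S100a9 at 4.13 and 10.7 CPM against 1049 and 447 CPM. Cxcr2 (log2 fold change 3.47, unadjusted p = 0.0517 in edgeR) and Padi4 (0.65, unadjusted p = 0.623) did not pass. Csf3r amounted to 45.5 and 23.8 CPM per 1000 CPM of the whole list in WT and to 35.7 and 52.5 in the knockouts, so that the groups overlapped on this scale. The make-up of the list sum differed between the groups, with Mmp9 above S100a9 in WT and far below it in the knockouts. This ratio is therefore not a level of Csf3r per neutrophil. Of the 50-base words of the main transcript of Csf3r, 11.5% also lay in transcripts of other genes, 402 in all. Most of these were shared with a single gene, ENSMUSG00000118291, whose transcripts held 9.47% of the words. How reads from such stretches were counted is not given.

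Csf1r (ENSMUSG00000024621, chromosome 18, 61100598 to 61132149, plus strand), the receptor for CSF1 and interleukin-34, was covered by 1090 and 869 counted reads in the WT libraries, against 4476 and 3401 in the knockouts. The levels were 72.7 and 54.9 CPM against 283 and 217 CPM, so both knockouts were well above both WT libraries. The log2 fold change was 1.97 (SE 0.24, 3.92-fold), with adjusted p = 0.0658 in edgeR and 1.95e-09 in DESeq2, and from 1.76 to 2.18 with each library left out. Of its ligands, Csf1 had a smaller log2 fold change in the same direction and Il34 the opposite direction, as given above. Among 13 macrophage markers, 11 were higher at an unadjusted p under 0.05 and 0 lower, against 12.0% and 10.9% of tested genes. Their log2 fold changes ran from 0.33 for Mertk to 3.83 for Cd163, with a median of 2.63. Their summed level was 389 and 449 CPM in WT and 3172 and 2552 CPM in the knockouts. Csf1r amounted to 187 and 122 CPM per 1000 CPM of macrophage markers in WT and to 89.1 and 84.9 in the knockouts. Csf1r shares 873 exon bases with Hmgxb3 on the opposite strand, and 17.7% of the 50-base words of its main transcript also lie in Hmgxb3 transcripts. Hmgxb3 measured 33.0 and 35.6 CPM in WT, against 26.8 and 24.5 CPM in the knockouts, lower where Csf1r was higher, and without a known strand setting both counts are uncertain.

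Csf2ra (ENSMUSG00000059326, chromosome 19, 61223957 to 61228429, minus strand), the GM-CSF-specific alpha chain, was covered by 200 and 207 counted reads in the WT libraries, against 587 and 424 in the knockouts. Its levels of 13.3 and 13.1 CPM in WT were nearly equal, and both knockouts were higher at 37.1 and 27.0 CPM. The log2 fold change was 1.28 (SE 0.25, 2.43-fold), with adjusted p = 0.101 in edgeR and 0.00183 in DESeq2, and its unadjusted p of 0.00500 became 0.0546 without knockout replicate 1. Per 1000 CPM of macrophage markers, Csf2ra amounted to 34.3 and 29.1 CPM in WT, against 11.7 and 10.6 in the knockouts.

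The shared beta chain Csf2rb (ENSMUSG00000071713, chromosome 15, 78325752 to 78353847, plus strand) was covered by 383 and 275 counted reads in the WT libraries, against 1568 and 1245 in the knockouts. The levels were 25.5 and 17.4 CPM against 99.0 and 79.3 CPM, well apart, with a log2 fold change of 2.06 (SE 0.27, 4.16-fold) and adjusted p = 0.0697 in edgeR and 3.35e-08 in DESeq2. Its neighbour Csf2rb2 (ENSMUSG00000071714, chromosome 15, 78282507 to 78305721, minus strand), the beta chain of the interleukin-3 receptor in mice, was covered by 337 and 251 counted reads in the WT libraries, against 870 and 747 in the knockouts. It stood at 22.5 and 15.8 CPM against 54.9 and 47.6 CPM, a log2 fold change of 1.42 (SE 0.25, 2.68-fold) with adjusted p = 0.0905 in edgeR and 0.000204 in DESeq2. These genes start 20030 bases apart and are transcribed away from each other. Their coding sequences were 95.2% identical over 2631 aligned bases, with 126 mismatches. The first 90 coding bases of each, with 3 mismatches, are shown because they illustrate how little tells reads of the pair apart, and capitals mark the bases that differ.
Csf2rb: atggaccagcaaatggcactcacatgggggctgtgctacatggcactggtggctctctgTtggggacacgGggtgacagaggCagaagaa
Csf2rb2: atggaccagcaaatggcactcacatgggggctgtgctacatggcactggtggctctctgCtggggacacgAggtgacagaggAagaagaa
Of the 50-base words of the main transcripts, 18.4% of those of Csf2rb also lay in Csf2rb2 and 19.02% of those of Csf2rb2 in Csf2rb, and the longest identical coding run was 242 bases. How reads from such stretches were treated is not given in the sources used here, so the split between the genes is uncertain. With their counts summed into 1 gene, the log2 fold change was 1.79 (SE 0.25) with adjusted p = 0.0746.

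The balance within this pair also differed between the groups. Csf2rb held 53.2% and 52.3% of the summed counts of the pair in WT, with 95% Clopper-Pearson intervals of 49.5 to 56.9% and 47.9 to 56.6%. In the knockouts it held 64.3% and 62.5%, with intervals of 62.4 to 66.2% and 60.3 to 64.6%. The libraries of a group thus lay within each other's intervals, and no interval of one group reached the other. These intervals cover counting error only. The exact two-sided permutation test again gave p = 0.333, the smallest possible, and reads that both genes share were not separated.

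**Figure D3:**
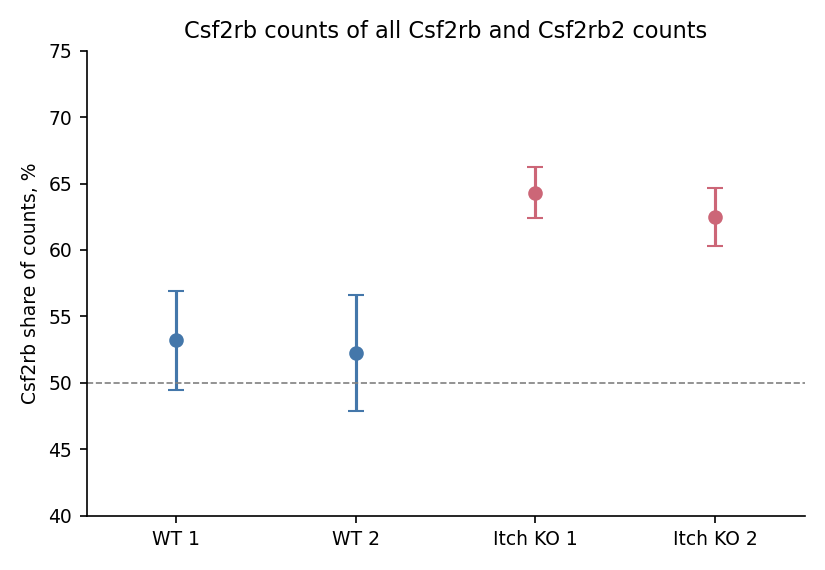
Share of Csf2rb in the summed counts of Csf2rb and Csf2rb2, in percent, with 95% Clopper-Pearson intervals as bars, WT in blue and Itch KO in red. The axis runs from 40 to 75%, with a dashed line at 50%, and the knockout points, at 64.3% and 62.5%, lie above the upper ends of both WT intervals.

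Promoters of 5 of the 9 genes were found in the RefSeq table (GRCm38.p6, from 250 bases before to 50 after the annotated start), among them those of 3 receptor chains that were higher together. The Csf2 window lies wholly outside the GENCODE gene and is not described. Their sequences are given because PU.1 and C/EBP factors are known regulators of myeloid receptor genes, and capitals mark matches to GAGGAA, a core of PU.1 sites, and to TTNNGNAA, a core of C/EBP sites, on either strand.
Csf3r, chr4:126024409-126024708, plus strand: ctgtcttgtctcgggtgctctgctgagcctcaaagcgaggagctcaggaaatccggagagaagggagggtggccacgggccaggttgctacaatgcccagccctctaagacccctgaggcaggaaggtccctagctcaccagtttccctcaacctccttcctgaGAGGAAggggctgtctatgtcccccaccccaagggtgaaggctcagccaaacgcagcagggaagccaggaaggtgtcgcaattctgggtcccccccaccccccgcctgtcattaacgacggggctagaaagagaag
Csf2ra, chr19:61228369-61228668, minus strand: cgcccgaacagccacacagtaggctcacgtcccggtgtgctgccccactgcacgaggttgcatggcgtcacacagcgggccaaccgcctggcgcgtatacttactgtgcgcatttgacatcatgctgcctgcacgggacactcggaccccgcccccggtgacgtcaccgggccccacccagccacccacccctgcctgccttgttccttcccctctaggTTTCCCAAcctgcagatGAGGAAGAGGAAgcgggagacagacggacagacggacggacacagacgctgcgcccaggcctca
Csf2rb2, chr15:78305672-78305971, minus strand: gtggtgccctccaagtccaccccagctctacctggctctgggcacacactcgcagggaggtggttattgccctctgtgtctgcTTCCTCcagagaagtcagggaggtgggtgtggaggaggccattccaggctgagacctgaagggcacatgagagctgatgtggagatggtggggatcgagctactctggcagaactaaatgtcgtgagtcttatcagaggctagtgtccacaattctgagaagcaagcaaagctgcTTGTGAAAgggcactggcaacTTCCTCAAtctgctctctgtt
GAGGAA occurred once in Csf3r, starting 86 bases before the RefSeq start, and in Csf2ra at 14 and 8 bases before it, as adjacent copies. The GENCODE genes of Csf3r and Csf2ra begin upstream of these RefSeq starts. The Csf3r match and the Csf2ra match at 8 bases therefore lie inside the GENCODE genes. Csf2rb2 held it on the minus strand 167 bases before the start and 30 bases into the transcript, the second overlapping a C/EBP match. The promoter of Csf1 held none, and 28.3% of 32851 promoters of the table held at least 1. TTNNGNAA matched once in Csf2ra and at 2 places in Csf2rb2, and nowhere in Csf3r or Csf1, and 40.7% of promoters held it. A match is a description of the letters, and nothing about binding was measured.

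**Figure D4:**
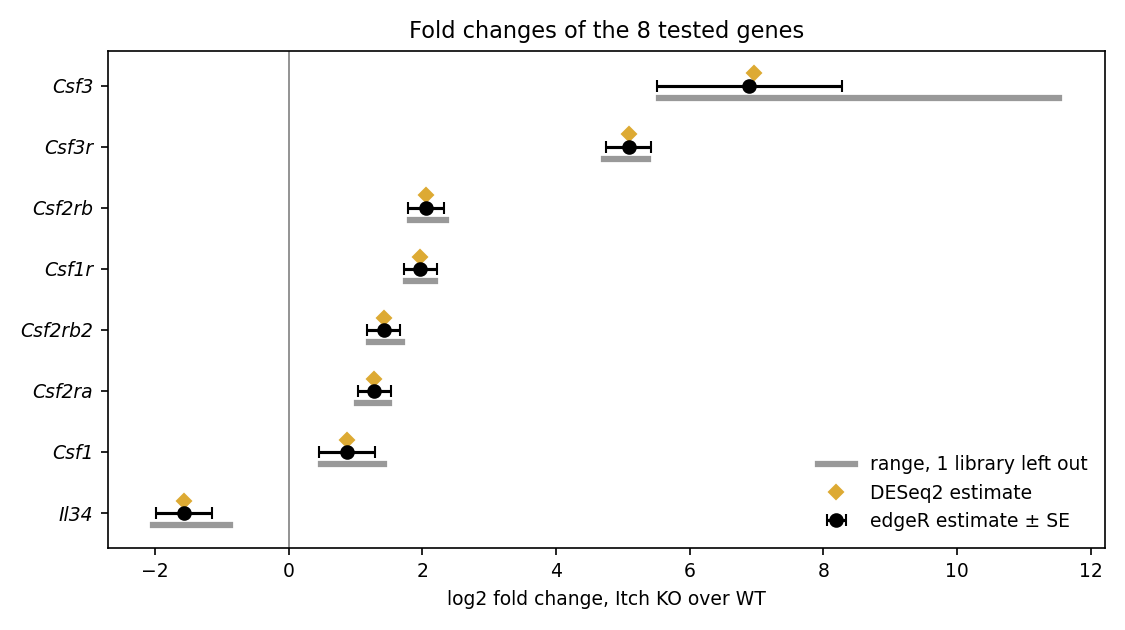
Log2 fold change of Itch KO over WT for the 8 tested genes, with the edgeR estimate and its SE in black, the DESeq2 estimate in yellow and the range of estimates with 1 library left out in grey. Only Il34 lies below 0 in every fit, and the upper end for Csf3, at 11.5, comes from the fit whose only WT library had 0 counts.

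In WT skin the set was led by Il34, and in the knockouts by Csf1r. In CPM per kb of exon, the mean WT levels were 49.2 for Il34, 11.04 for Csf1r, 9.71 for Csf1, 4.60 for Csf2ra, 4.04 for Csf2rb2, 2.95 for Csf2rb, 0.529 for Csf3r, 0.134 for Csf3 and 0.0833 for Csf2. The ranges of the 2 WT libraries overlapped between Csf1r and Csf1, between Csf2ra and Csf2rb2, between Csf2rb2 and Csf2rb and between Csf3 and Csf2, so the order within these pairs is not beyond the spread. In the knockouts the mean levels were 43.2 for Csf1r, 18.03 for Csf3r, 17.8 for Csf1, 16.9 for Csf3, 16.5 for Il34, 12.3 for Csf2rb, 11.2 for Csf2ra, 10.8 for Csf2rb2 and 0.277 for Csf2. There, Csf1r was apart from all others and Csf2 was below all others, while Csf3r, Csf1, Csf3 and Il34 each overlapped with the next, as did Csf2rb, Csf2ra and Csf2rb2. The level of Csf3r was 0.0382 and 0.0608 times that of Csf1r in WT and 0.448 and 0.376 times in the knockouts. With the length of the main coding transcript, Csf1r and Csf2 kept their places, the order of several genes between them changed, and Csf2rb was 1.10 and 1.06 times the level of Csf2rb2 in WT in place of 0.740 and 0.714 times.

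Relatives of these genes were measured only in part. Of 8 other ligands and receptors of the type I cytokine family, 2 had enough reads to be tested. Il3ra, the alpha chain of the interleukin-3 receptor, measured 5.93 and 6.56 CPM in WT against 24.5 and 19.6 CPM (a log2 fold change of 1.82, SE 0.26, with adjusted p = 0.0746 in edgeR and 7.00e-06 in DESeq2). Epor, the erythropoietin receptor, stood at 0.60 and 1.45 against 4.17 and 2.29 CPM (adjusted p = 0.224). The ligands that share the beta chain were near the limit of detection: Il3 had 0 CPM in both WT libraries and 0.189 and 0.319 CPM in the knockouts, and Il5 stood at 0.0631 to 0.0667 CPM in all 4. Among 5 genes of other growth factor pairs, 2 were higher at an unadjusted p under 0.05, against 12.0% of tested genes. These were Ptprz1, described as a further receptor for interleukin-34, at 3.73 and 4.54 against 21.5 and 12.6 CPM, and Flt3, the receptor for the dendritic cell growth factor FLT3 ligand, at 2.53 and 1.83 against 6.76 and 8.79 CPM. Sdc1, a syndecan that also binds interleukin-34, overlapped between the groups at 635 and 856 against 850 and 966 CPM. Without WT replicate 2, 4 of these 5 genes were higher at that threshold, against 22.2% of all genes, and without knockout replicate 2 it was 1, against 6.84%.

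Among 22 genes of signal transduction downstream of these receptors, 13 passed an unadjusted p of 0.05 upward and 0 downward. Of all tested genes, 12.0% passed it upward and 10.9% downward. In edgeR 0 of the 22 passed the adjusted threshold over all genes. DESeq2 called 10 higher, where it called 7.83% of tested genes. Their median log2 fold change was 0.59. The genes that were higher include kinases and adaptors known mainly from blood cells. Tyrobp, the adaptor DAP12, stood at 31.0 and 27.8 CPM in the WT libraries against 214 and 147 CPM (a log2 fold change of 2.62, SE 0.25, with adjusted p = 0.0548 in edgeR). The Src-family kinase gene Fgr stood at 5.0 and 3.79 against 34.0 and 27.7 CPM (2.81, SE 0.28, with adjusted p = 0.0558), and the kinase gene Fes at 13.5 and 12.3 against 48.1 and 40.7 CPM (1.78, SE 0.20, with adjusted p = 0.0624). Jak2, the kinase bound to the beta chain, was also among the 13, at 79.7 and 58.8 against 115 and 109 CPM (unadjusted p = 0.0236, adjusted p = 0.168). Its downstream factors Stat5a and Stat5b overlapped between the groups at 39.4 and 28.03 against 35.0 and 30.9 CPM and at 111 and 51.9 against 56.8 and 59.7 CPM. The median log2 fold change of the 22 was 0.69 without WT replicate 1 and 0.56 without WT replicate 2. It was 0.59 and 0.63 without knockout replicates 1 and 2.

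Negative regulators of these receptors included 6 of 12 genes that were higher and 1 that was lower at an unadjusted p under 0.05. Of all tested genes, 12.0% were higher and 10.9% lower, so the 1 lower gene was near the background share. In edgeR 0 passed the adjusted threshold. DESeq2 called 6 higher and 1 lower, where it called 7.83% and 6.16% of tested genes. Socs3, the feedback inhibitor known to limit G-CSF signalling, stood at 47.1 and 32.6 CPM in the WT libraries against 142 and 164 CPM (a log2 fold change of 1.94, SE 0.24, with adjusted p = 0.0676). The adaptor gene Dok2 stood at 9.20 and 7.39 against 34.7 and 34.9 CPM (adjusted p = 0.0624), and the lipid phosphatase gene Inpp5d at 16 and 10.4 against 69.2 and 53.5 CPM (adjusted p = 0.0727). The gene that was lower was Cbl, a ubiquitin ligase known to target the CSF1 receptor for degradation, at 30.0 and 15.9 CPM in the WT libraries against 9.79 and 6.05 CPM (log2 fold change -1.53, unadjusted p = 0.0231, adjusted p = 0.167), a gene named after its value was seen. Without knockout replicate 2 its log2 fold change was -1.22 with unadjusted p = 0.108, so that 0 of the 12 were lower. Cish, a target of STAT5, stood at 28.7 and 28.2 against 32.02 and 37.1 CPM with adjusted p = 0.397.

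Of 16 myeloid lineage transcription factors, Cebpe and Gfi1 passed the low-count filter through the knockouts alone and so had to be higher. Of the other 14, 8 passed an unadjusted p of 0.05 upward and 2 downward. Of the 16116 tested genes that did not pass the filter through 1 group alone, 1759 passed upward and 1663 downward. The 2 lower genes were thus near the background share. Among all 16, 0 passed the adjusted threshold in edgeR. DESeq2 called 7 higher and 0 lower, where it called 7.83% and 6.16% of tested genes. Those 7 include Cebpe, which had to be higher. Spi1, which encodes PU.1, stood at 17.9 and 13.7 CPM in the WT libraries against 80.5 and 67.3 CPM (a log2 fold change of 2.22, SE 0.23, with adjusted p = 0.0562). Cebpe, a factor of granulocyte maturation, stood at 0.0667 and 0.0631 CPM, 1 read per library, against 2.21 and 3.38 CPM, and Cebpd at 13.3 and 12.4 against 54.8 and 90.2 CPM (2.50, SE 0.31, with adjusted p = 0.0658). The median log2 fold change of all 16, Cebpe and Gfi1 included, was 0.69 without WT replicate 1 and 1.47 without WT replicate 2. It was 1.123 and 1.095 without knockout replicates 1 and 2. Both lower genes, Cebpa at 470.0 and 457 against 318 and 346 CPM and Klf4 at 644 and 565 against 422 and 450.2 CPM, are also known from keratinocytes, and were named after their values were seen. Among 8 factors that act on AU-rich or stem-loop mRNA elements, 1 was higher at an unadjusted p under 0.05 and 0 were lower, a share near the 12.0% of all tested genes that were higher, with a median log2 fold change of 0.14. The gene was Zfp36, which encodes the decay factor tristetraprolin, at 76.6 and 81.8 CPM in the WT libraries against 219 and 194 CPM (a log2 fold change of 1.38, SE 0.16, with adjusted p = 0.0624 in edgeR and 9.28e-09 in DESeq2). Without WT replicate 2, 3 of the 8 passed upward, against 22.2% of all genes, and without knockout replicate 2 it was 2, against 6.84%.

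**Figure D5:**
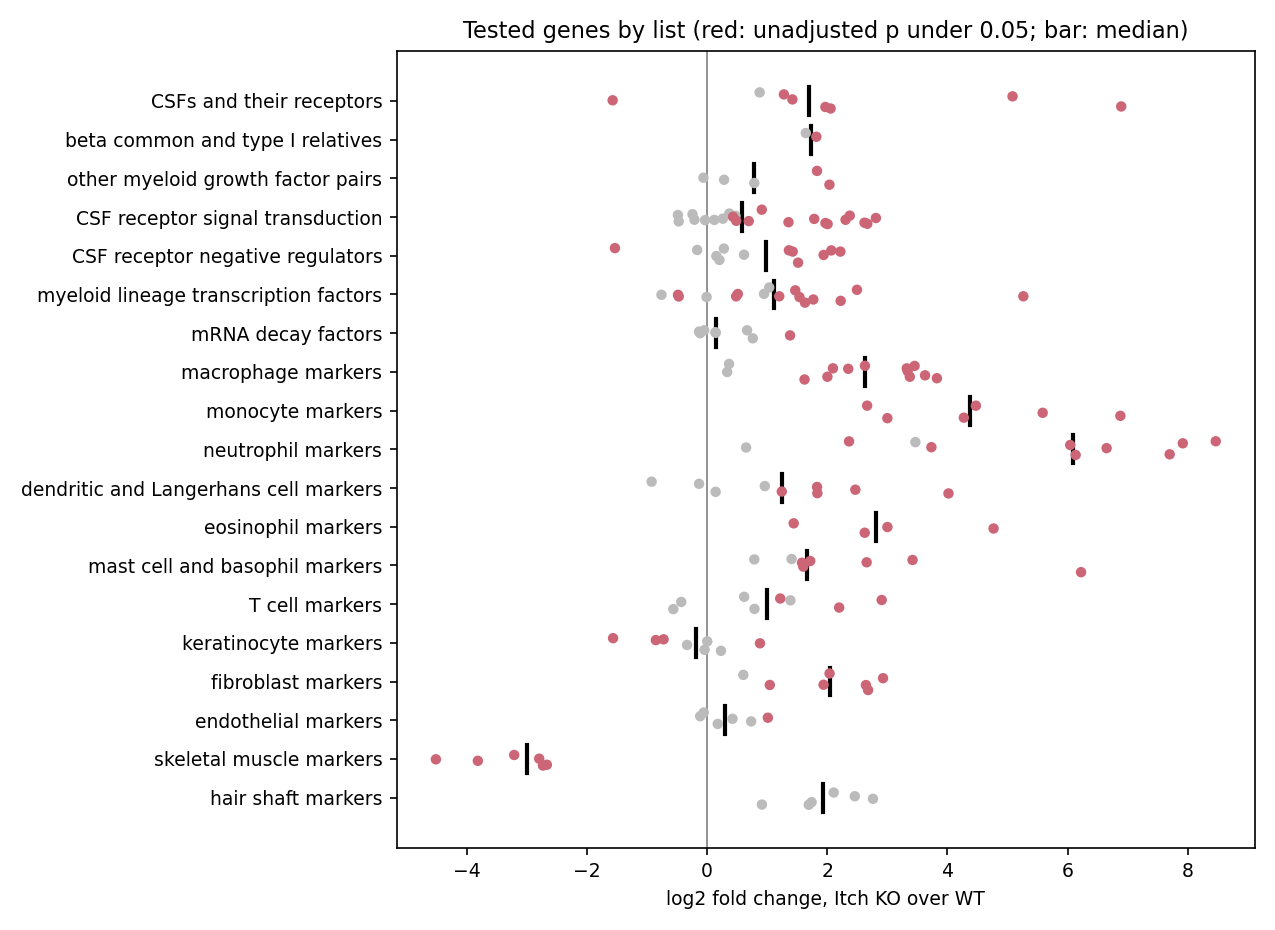
Log2 fold change of Itch KO over WT for every tested gene of the set and of each gene list, with 1 point per gene, red where the unadjusted edgeR p was under 0.05, and the list median as a black bar. The signal transduction list has a median of 0.59, the macrophage markers have a median of 2.63, and the skeletal muscle markers lie below 0.

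Markers of the cells that carry these receptors or could stand beside them differed between the groups as well, and their part in the values above was not tested. Of the tested genes of other lists, 2 eosinophil markers (Ccr3, Prg2) and 2 mast cell and basophil markers (Tpsab1, Mcpt8) passed the low-count filter through the knockouts alone and so had to be higher. Of the rest of these lists, 5 of 9 dendritic and Langerhans cell, 2 of 2 eosinophil, 4 of 6 mast cell and basophil and 3 of 8 T cell markers were higher at an unadjusted p under 0.05, with 0 lower. Of all tested genes, 12.0% were higher and 10.9% lower at that threshold. Cd207 and Epcam, known from Langerhans cells, were not among the 5. Their log2 fold changes were -0.92 and -0.13, with unadjusted p = 0.0535 and 0.761 in edgeR. The dendritic and Langerhans list summed to 244 and 401 against 307 and 375 CPM, overlapping. The eosinophil list summed to 12.6 and 13.3 against 46.9 and 47.8 CPM, the mast cell and basophil list to 116 and 211 against 405 and 704 CPM, and the T cell list to 61.0 and 47.2 against 84.3 and 69.1 CPM. Fibroblast markers were higher in 6 of 7 cases, keratinocyte markers were higher in 1 and lower in 3 of 8, endothelial markers were higher in 1 of 6 at summed levels of 335 and 147 against 372 and 322 CPM, and hair shaft markers in 0 of 6. Without WT replicate 1, 6 of 6 endothelial and 5 of 6 hair shaft markers were higher, without WT replicate 2 all 6 hair shaft markers were higher, and without knockout replicate 1 none of the keratinocyte or endothelial markers passed. Without knockout replicate 2, 3 of 9 dendritic and Langerhans cell markers were higher, and without WT replicate 2, 5 of 8 T cell markers were higher and 2 lower, the latter near the background. The shares of all genes tested that were higher and lower at this threshold were 14.2% and 9.52% without WT replicate 1, 22.2% and 21.7% without WT replicate 2, 5.81% and 2.48% without knockout replicate 1, and 6.84% and 1.83% without knockout replicate 2. The 6 skeletal muscle markers were all lower, and 0 of them passed without either knockout library. No marker on these lists had 0 counts in all 4 libraries.

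The genes whose profile over the 4 libraries was most like that of each member were found by the root mean square difference of centred log2(CPM + 1) values, over 13837 genes with a mean of at least 1 CPM. With 4 libraries this measure describes these libraries and does not rank likeness in general. Closest to Csf1r were Ptpn18 (0.03), Fxyd5 (0.05) and Ifi204 (0.05), and closest to Csf2rb were Ptpn18 (0.05), Fxyd5 (0.06) and Csf1r itself (0.06), so these receptors had similar profiles. Csf2rb2 was nearest to Cygb (0.03), Cd209b (0.04) and Amigo2 (0.04), and Csf2ra to Amdhd2 (0.04), C1qtnf7 (0.04) and Kcnd1 (0.04). Il34 was nearest to Ptpn4 (0.01), Thsd4 (0.02) and Ngef (0.04), and Csf1 to Pcolce2 (0.05), Arhgap26 (0.06) and Hrct1 (0.07). Csf3 was nearest to Fpr2 (0.16), Cyp4f18 (0.22) and the neutrophil collagenase gene Mmp8 (0.24), which shared its gap between the knockout libraries. The nearest genes to Csf3r were Uty (0.22), Mcemp1 (0.22) and Kdm5d (0.24), of which Uty and Kdm5d are Y-linked.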

How the data were processed

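Each deposited file lists raw read counts by Ensembl gene for 1 library. The submitters' processing notes name HTSeq 0.6.1, TopHat2, SAMtools 0.1.19, CASAVA 1.8.2 and mm10 (GRCm38). No source used here gives the annotation release, strand setting or read filters. In each file 5 counter lines were set aside: no_feature reads were 5.68 to 7.45% and ambiguous reads 4.48 to 4.70% of the total. GENCODE vM21 gave symbols and positions for 37607 of 39179 identifiers.

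The main test was that of edgeR 4.0.16 under R 4.3.3 (filterByExpr, minimum count 10, TMM, quasi-likelihood F test with legacy=TRUE and robust=TRUE, two-sided, Benjamini-Hochberg over 16651 genes). SE is the log2 fold change divided by the square root of F. Alternatives were DESeq2 1.42.0, limma-voom 3.58.1, RLE size factors, no filter, a replicate block, each library left out, and Csf2rb and Csf2rb2 summed. The procedure was tested on simulated data. CPM use TMM-scaled library sizes, and floors the raw ones.

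The members and lists were chosen with earlier results of these data known. Named genes were the members, Itch, and the genes with the smallest p of each list, up to 3 for pathways and 2 for markers. Genes set beside them to describe a list were named after their values were seen. Lists were described, not tested. Flt3l and Krt85 were not matched. The count for the monocyte marker list is not reported here.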

Additional observations from a re-analysis of the deposited data

How the results depend on the processing

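No member changed direction under any of the 10 other settings run. Of 73 pairs of a member and a setting, 66 stayed on their side of an unadjusted p of 0.05, 5 lost it and 2 gained it, and the report gives these beside Csf1, Il34, Csf2ra and Csf3, apart from Csf1 under the replicate block (log2 fold change 0.91, unadjusted p = 0.00713). The number of members at an unadjusted p under 0.05 was 7, 5 to 8 elsewhere, while the share of all genes at that threshold ranged from 5.81 to 22.2% higher and from 1.83 to 21.7% lower over these settings. The 0 members at an adjusted p under 0.05 became 4 without the low-count filter, 7 in DESeq2 and 0 to 6 with each library left out. Over all genes 1 passed, against 488 without the filter, 2329 in DESeq2, 0 in limma-voom, 0 with the replicate block and 0 to 5320 with each library left out. At an adjusted p under 0.10, 4 members became 7 in DESeq2 and 5 without the filter, and stayed 4 in limma-voom. The share of all genes at 0.10 is not given for these settings, so these counts are not read as particular to the members. Where WT or the knockouts were left with 1 library, that library was assumed to vary like the other group.

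The replicate numbers occur in both groups, and nothing in the labels says that they pair samples. Deviations of same-numbered libraries from their group means correlated at 0.186 across 16651 genes, over 2 pairs only. With the replicate block all 8 tested members had an unadjusted p under 0.05, where 13.4% of all genes were higher and 10.6% lower.

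Depth limits Csf2, Il3 and Il5, which were at or under 5 counts per library, and the WT values of Csf3.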
